A study of Mus musculus with 3 samples.

Results

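The Fos and Jun genes encode the subunits of activator protein 1 (AP-1), and 6 of them were measured in mouse hippocampus, in field CA1, after contextual fear conditioning, the learned association of a place with a shock: Fos, Fosb, Fosl2, Jun, Junb and Jund. They were chosen as a gene family, by name, and every probe set that the array's annotation assigns to 1 of these genes and to no other was taken. This gave 8 of 12488 probe sets on the array. All 6 genes had at least 1 probe set, Fos and Junb had 2, and 0 probe sets shared between a member and another gene were set aside. The animals were young males of the inbred strain C57BL/6J. Each mouse spent 2 min in an unfamiliar chamber before a foot shock of 1 s at 0.5 mA, the cycle was given 3 times in all, and 1 min after the third shock the animal went back to its home cage. CA1 total RNA, taken 6 h after that shock, was hybridised to 3 replicate short-oligonucleotide arrays, all of this 1 group, and no genetic alteration or drug is named in the labels. How many mice gave the RNA of 1 array is not stated, so differences between arrays may be biological, technical or both. No untrained group was analysed here, so the values are levels after training and not responses to it.

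AP-1 is a dimer of basic leucine zipper proteins that binds DNA at short palindromic sites and its cAMP-response variants. Fos proteins cannot pair with one another and need a Jun partner, whereas Jun proteins also form dimers among themselves. In neurons, synaptic activity and calcium entry raise transcription of Fos, Fosb and Junb within minutes, and Fos is widely used to mark recently active cells in the hippocampus. Jund is made in most cells without stimulation. Fosb also gives a truncated splice form, deltaFosB, whose protein is long-lived.

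The DNA just before each transcription start is printed so that short response elements within that stretch can be seen. Shown are the 140 bases before the start, 5' to 3' on the gene's strand, from RefSeq annotation of the mouse build GRCm38.p6, with matches to the searched motifs in capitals. They are chr12:85473750-85473889 on the plus strand for Fos, chr7:19310046-19310185 on the minus strand for Fosb and chr5:32136332-32136471 on the plus strand for Fosl2. For Jun they are chr4:95052223-95052362 on the minus strand, for Junb chr8:84978749-84978888 on the minus strand and for Jund chr8:70697599-70697738 on the plus strand. The Fosb start is 73 bases inside the outer end of the annotated gene.
Fos: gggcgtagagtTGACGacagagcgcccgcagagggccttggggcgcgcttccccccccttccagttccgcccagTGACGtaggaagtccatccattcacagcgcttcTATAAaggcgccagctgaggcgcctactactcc
Fosb: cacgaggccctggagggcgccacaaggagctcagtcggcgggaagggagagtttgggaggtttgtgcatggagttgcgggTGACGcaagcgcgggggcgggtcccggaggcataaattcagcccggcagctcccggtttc
Fosl2: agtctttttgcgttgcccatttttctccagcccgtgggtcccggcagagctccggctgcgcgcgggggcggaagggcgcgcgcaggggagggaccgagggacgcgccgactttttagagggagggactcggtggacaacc
Jun: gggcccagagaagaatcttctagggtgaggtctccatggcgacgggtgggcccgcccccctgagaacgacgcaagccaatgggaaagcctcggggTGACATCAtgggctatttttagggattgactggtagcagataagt
Junb: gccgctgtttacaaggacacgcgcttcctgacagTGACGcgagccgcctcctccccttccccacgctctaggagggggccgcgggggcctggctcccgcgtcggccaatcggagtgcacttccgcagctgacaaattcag
Jund: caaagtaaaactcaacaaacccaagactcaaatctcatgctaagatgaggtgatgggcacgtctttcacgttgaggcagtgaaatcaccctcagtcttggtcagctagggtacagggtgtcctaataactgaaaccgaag

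Motifs were searched on both strands of the full windows of 300 bases, from 250 before the start to 50 after it. The core of the cAMP response element, TGACG, was present in 3 of 6 members, Fos, Fosb and Junb, and in 20.8% of all 32851 promoter windows. In Fos it began at positions -129 and -66 from the start, in Fosb at -60 and in Junb at -106. Jun instead had TGACATCA, an AP-1-like element, at -45, which 3.62% of all windows hold. TATAA was found in Fos at -33 and in Junb at 1, just after the annotated start and so not printed above, against 24.9% of all windows. The full palindrome TGACGTCA, which contains the shorter core, the AP-1 site TGANTCA and the CArG box, the site of serum response factor, were found in 0 of 6 windows and in 1.79%, 7.81% and 1.63% of all windows. Fosl2 and Jund had none of these letters in their windows. These matches describe sequence only, since no binding was measured. Sequence outside the windows was not searched, so an absent match does not mean that a gene lacks the element.

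Of the 6 genes, 5 were above threshold on all 3 arrays, Fos, Fosb, Jun, Junb and Jund, each at its brightest probe set. The threshold was a signal of 174.8, the median of all deposited values, and 52.9% of 8251 named genes met the same criterion. Signal is the deposited intensity per probe set in arbitrary units, given below for arrays 1, 2 and 3 in that order and as mean ± SD (n = 3 arrays). Hybridisation differs between probe sets, so the signal of one probe set is not set against that of another. A transcript may be present at a signal under the threshold.

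**Figure D1:**
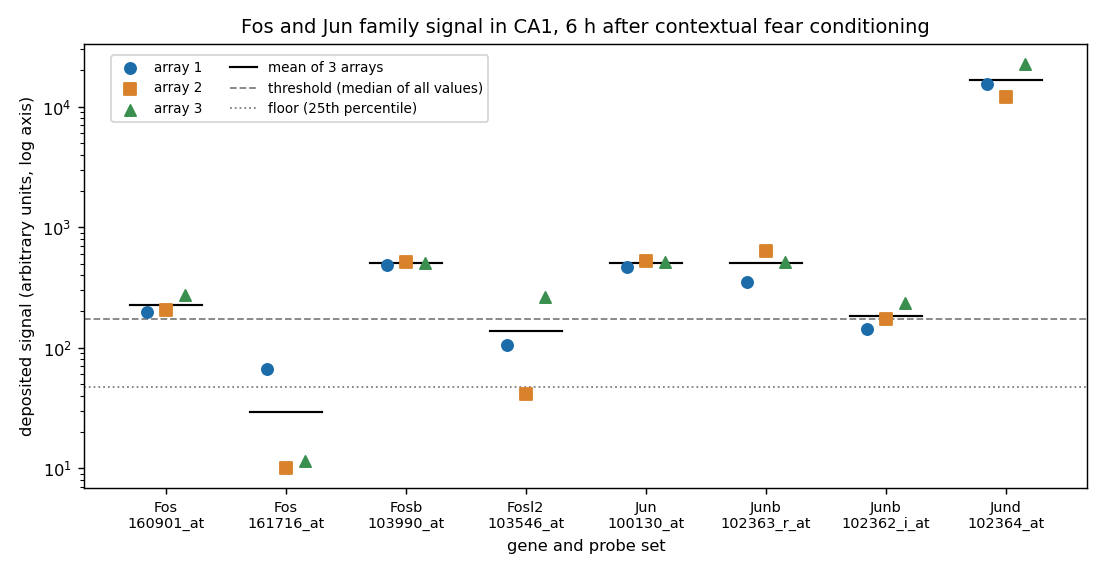
Deposited signal of the 8 Fos and Jun probe sets on a log axis, with 1 point per array, a line at the mean of 3 arrays, a dashed line at the threshold of 174.8 and a dotted line at 47.5, the 25th percentile of all values. The 3 arrays of Fosb and of Jun nearly coincide, while those of Fosl2 spread from 41.7 to 262.

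Among the Fos proteins, Fos itself gave 199.6, 207 and 274 at its brightest probe set, 160901_at, a mean of 227 ± 40.8. All 3 arrays were above threshold, with array 3 the highest and arrays 1 and 2 close together. The second Fos probe set, 161716_at, gave 67.1, 10 and 11.4, under threshold on every array. Only array 1 of that probe set exceeded the highest of 15 bacterial control probe sets on its own array, which read 54.1, 115 and 55.6 on arrays 1, 2 and 3. The Fos probe sets thus ordered the arrays differently, highest on array 3 in the first and on array 1 in the second.

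Fosb gave 484, 517 and 501, a mean of 501 ± 16.5. Its highest array was 1.07 times its lowest, the narrowest ratio among the members. Fosl2, which encodes Fra-2, gave 106, 41.7 and 262, a mean of 137 ± 113. Its mean was under threshold, array 3 alone was above it, and the array 2 value lay under the bacterial control maximum of 115 on that array. The highest Fosl2 array was 6.29 times the lowest, a ratio that rests on this dim array 2 value.

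Among the Jun proteins, Jun gave 469, 523 and 515, a mean of 502 ± 29.5. As with Fosb, the arrays lay close together, and the highest was 1.12 times the lowest. Junb, which pairs with Fos proteins and can oppose transcription driven by Jun, had 2 probe sets above threshold on average. The brighter one, 102363_r_at, gave 349, 638 and 518, a mean of 502 ± 145, with array 1 well below the others. The other, 102362_i_at, gave 143, 174.8 and 234, a mean of 184 ± 46.5, and array 3 alone exceeded the threshold, which array 2 equalled. Jund gave 15397, 12134 and 22552 at 102364_at, a mean of 16694 ± 5329. Array 3 had the highest Jund signal, 1.86 times that of array 2, the lowest.

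The 2 Junb probe sets were built on the same source sequence and agreed that array 1 was lowest, but not on the highest array, which was array 2 in the brighter and array 3 in the dimmer. Their suffixes mark sets with fewer unique probes than the design required (i) or chosen under relaxed rules (r). Over all genes with several probe sets above threshold, 862 pairs in 675 genes, 37.9% of pairs shared their lowest array, 34.9% shared their highest and 20.6% had the arrays in the same order. A correlation was not computed from 3 arrays.

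Whether a member varied between arrays more than other probe sets of its level was tested with limma's intensity-dependent variance prior over all 6218 probe sets above threshold. For this the arrays were rescaled to a common median, values were floored at 47.5 and log2-transformed. Of the 5 member genes above threshold, 0 passed at an adjusted p of 0.05, and 1 of 6218 probe sets, or 0.0161%, passed. At an unadjusted p under 0.05 in limma, 1 of the 5 member genes passed, Jund. Beside it stood 4.57% of 4876 named genes above threshold, each at its brightest probe set, and 5.21% of the 6218 probe sets. The member probe sets tested had log2 ranges from 0.093 to 0.94, and in simulated data the test called no shift of slightly more than that size, so the 0 calls say nothing about stability. Fosl2 was under threshold and not tested.

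Of the members above threshold, Jund had the widest spread. Its log2 SD was 0.48 over 3 arrays, and the median was 0.19 over the 500 probe sets nearest to it in mean log2 signal. Array 3 lay 0.77 above the mean of the other arrays on the log2 scale and array 2 deviated from its others by -0.65. The limma variance test gave an unadjusted p of 0.037 and an adjusted p of 0.90. The adjusted p lay between 0.70 and 1 over 13 alternatives, and without array 3 the log2 range was 0.35 in place of 0.94.

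Fosb and Jun showed the smallest spread. The log2 SD was 0.053 for Fosb and 0.097 for Jun, and the medians of the 500 probe sets nearest to each in level were both 0.26. Fos had a log2 SD of 0.28, beside 0.31 for its neighbours in level. Junb had 0.44 at its brighter probe set, beside 0.25, and 0.38 at the dimmer, beside 0.41. The limma adjusted p was 0.988 for Fos and for the dimmer Junb probe set, 0.998 for Fosb and Jun, and 0.97 for the brighter Junb probe set. Over the 5 member genes the median log2 SD was 0.28, and it was 0.25 over all 4876 named genes above threshold. No member probe set above threshold had a ratio of highest to lowest array over 2, a limit that 12.0% of the 6218 probe sets passed.

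**Figure D2:**
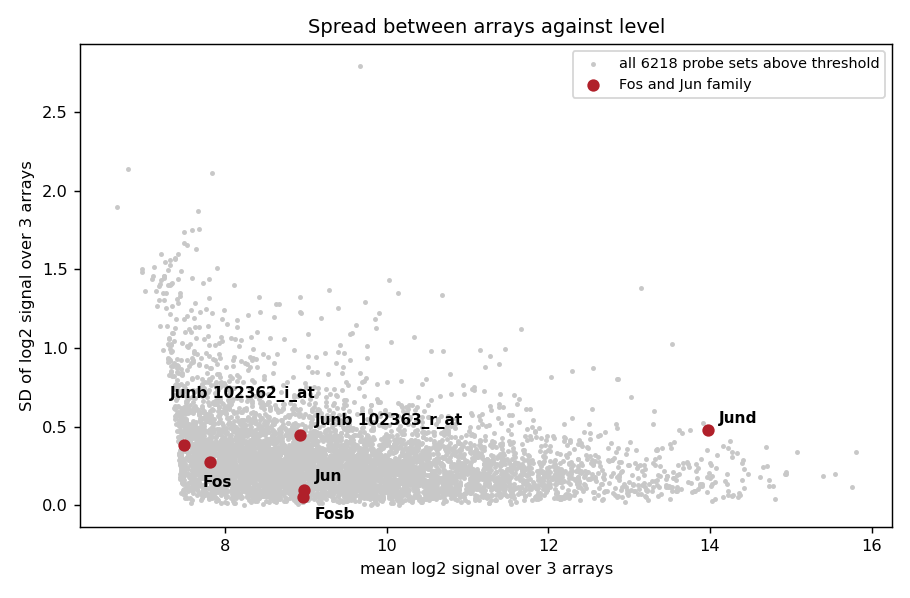
SD of log2 signal over 3 arrays (y axis) against mean log2 signal (x axis) for all 6218 probe sets above threshold in grey, with the 6 Fos and Jun probe sets above threshold in red. Jund stands at an SD of 0.48 at a level where most probe sets lie lower, while Fosb and Jun lie near the lower edge at 0.053 and 0.097.

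Of the 6 member probe sets above threshold, 5 were lowest on array 1, all but Jund, and 27.0% of all probe sets above threshold were lowest there. By gene, at the brightest probe set, 4 of 6 were lowest on array 1, while Jund and Fosl2 were lowest on array 2. The dim Fos probe set was highest on array 1. The lowest array was the same for the deposited, the median-scaled and the quantile-normalized values. The pattern was noticed after the values were seen, no test covers it, the Fosb and Jun differences within it are small, and the 2 Junb probe sets are one transcript. In deposited values 3 of the 6 were highest on array 2 and 3 on array 3, beside 35.4% and 32.5% of all probe sets. Fosb and Jun moved from array 2 to array 3 as their highest after scaling to a common median or quantile normalization, so that 5 of 6 were then highest on array 3, beside 37.5% of all probe sets after median scaling.

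**Figure D3:**
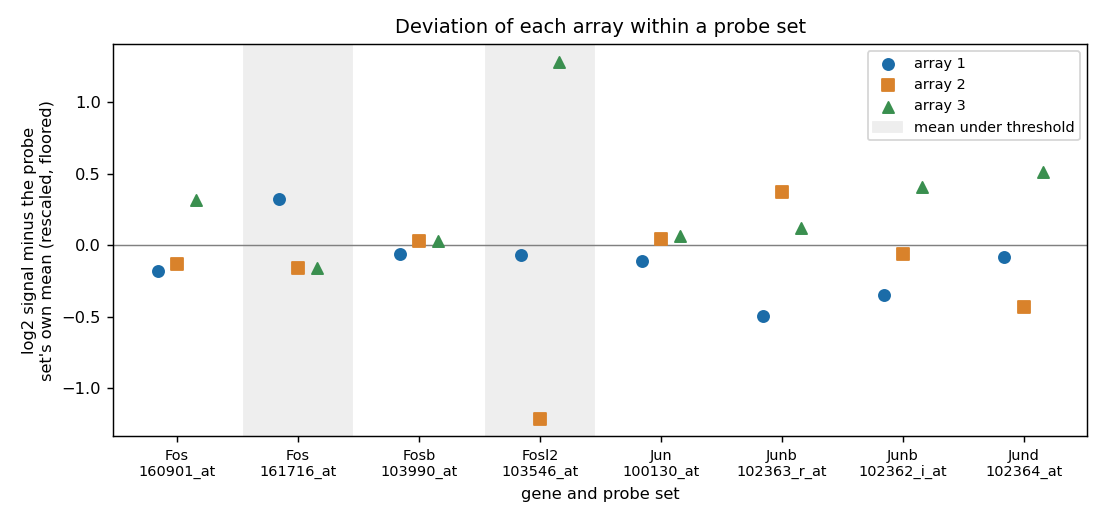
Log2 signal of each array minus the mean of its own probe set (y axis), after rescaling and flooring, for the 8 Fos and Jun probe sets, with those under threshold on grey ground. Array 1 is the lowest point in 5 of the 6 probe sets above threshold, and Fosl2 spans from -1.21 to 1.28.

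Summed signals of markers, 3 genes for each of 10 cell types, are given for arrays 1, 2 and 3. The CA1 pyramidal markers Wfs1, Pou3f1 and Dcn were all above threshold on every array and summed to 6587, 5554 and 5680. Dcn alone was highest on array 1, while Pou3f1 was highest on array 2 and Wfs1 on array 3. Sums were highest on array 3 for interneuron, endothelial, CA3 and CA2, microglial and dentate granule markers. In each of these types 2 of 3 genes were highest there, except microglia with 1 of 3. For dentate granule markers these were Prox1 and Calb1. Prox1, at 26.7, 10.6 and 47.8, lay under the bacterial control maximum on every array. Calb1 gave 1631, 1409 and 1648, with arrays 1 and 3 close together. Interneuron markers summed to 12969, 13318 and 17509, and endothelial markers to 547, 479 and 788.5. Above threshold on average were 2 of the 3 interneuron, 2 of the 3 dentate granule and 1 of the 3 endothelial genes. CA3 and CA2 markers, 2 of 3 above threshold, summed to 1099, 1812 and 1824, and all 3 genes were lowest on array 1. Microglial markers, all 3 above threshold, summed to 2912, 3308.5 and 3375, but C1qb alone was lowest on array 1, with Csf1r lowest on array 2 and C1qa on array 3. Choroid plexus markers, 2 of 3 above threshold on average, summed to 1701, 4961 and 300.1, highest on array 2 for each gene. The other sums were 20537, 21359 and 20951.5 for oligodendrocyte, 3483, 3158 and 2956 for astrocyte, 2549, 2373 and 2364 for blood and 1863.5, 1708 and 1876 for dentate granule markers. The astrocyte sum was highest on array 1, but 0 of the 3 astrocyte genes were highest there, with 2 on array 2 and 1 on array 3. Control probe sets gave a 3' over 5' ratio of 3.99, 1.21 and 3.94 in Gapdh transcripts and of 2.57, 1.86 and 3.50 in those of Actb. The part of these differences in the member values was not tested. In whole tissue, fewer cells of a type and less RNA per cell cannot be told apart.

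The genes around AP-1 were described in 4 lists. Among relatives and dimer partners, 6 of the 11 genes represented on the array were above threshold. Fosl1, the Fra-1 gene and the remaining Fos relative, gave 12.5, 27.2 and 15.2, under the floor of 47.5 on every array. Atf2, which pairs with Jun at cAMP-response sites, gave 1994, 2121 and 2576, a mean of 2230.5 ± 306. Atf3, a stress-induced partner of Jun proteins, gave 136, 159 and 145, under threshold on each array, and Atf4 gave 1817, 2501 and 1743. In this list the limma variance test called 0 genes after adjustment over all probe sets. At the brightest probe set of each gene, 0 had an unadjusted p under 0.05. The median log2 SD was 0.24.

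Of the kinases and phosphatases upstream of AP-1, 9 of 13 represented genes exceeded the threshold on all arrays, and 7 listed genes were not analysed here. Mapk8 and Mapk10, which encode the Jun kinases JNK1 and JNK3, gave 1116, 1204 and 1091, and 4821, 4607.5 and 5079.8. At these brightest probe sets both varied little between arrays, with a log2 SD of 0.057 and 0.096. The other Mapk10 probe set, at 1675, 880.6 and 1640.5, was also above threshold on every array but varied more. Its log2 SD was 0.54, and the limma variance test gave an unadjusted p of 0.049 and an adjusted p of 0.94. Mapk9, the JNK2 gene, gave 93.0, 291 and 105, above threshold on array 2 alone. Mapk14, which encodes the p38 alpha kinase, gave 1279.7, 980.1 and 1143. Again, at the brightest probe set of each gene, 0 genes passed the variance test in limma and 0 had an unadjusted p under 0.05. The median log2 SD was 0.23.

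Regulators that act at Fos and Jun promoters were above threshold for 6 of 10 genes, 4 of them on all arrays. The first 4 represented genes of this list were all under threshold. Elk1, a ternary complex factor at serum response elements, gave 171, 80.7 and 166.5, and its relatives Elk3 and Elk4 gave 40.8 ± 6.53 and 26.8 ± 12.4. Creb1, the factor of the cAMP response element, gave 110, 56.8 and 125 at its brightest probe set. The median log2 SD of the 6 genes above threshold was 0.55, the largest of the 4 lists. In limma 0 of them passed the adjusted variance test and 3 had an unadjusted p under 0.05, Mef2a, Mef2c and Crebbp, beside 223 of 4876 named genes above threshold, or 4.57%. Mef2a and Mef2c, activity-dependent factors of muscle and neurons, were lowest on array 3, at 2953, 2352 and 1118.5 and at 247, 302 and 11.5. Crebbp, which encodes the coactivator CBP, was lowest on array 2, at 1314, 569 and 1157. These 3 genes were named after their values were seen.

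Among 14 genes described elsewhere as AP-1 targets, mostly in other tissues, 7 were above threshold on all 3 arrays. Penk, the proenkephalin gene, gave 1619, 1875 and 1994.8 and Pdyn, the prodynorphin gene, gave 183, 182 and 104. The Pdyn mean of 156 was under threshold, although 2 arrays were above it. The other Pdyn probe set, at 11.5, 22.3 and 87.5, was under threshold on every array and put array 3 highest in place of lowest. The next brightest Penk probe set, at 169.8, 319 and 54.2, put array 3 lowest in place of highest. Cdk5, a neuronal kinase gene reported as a target of deltaFosB, gave 1408, 1953 and 1151.5. Gria2, an AMPA receptor subunit gene, gave 11481, 10721 and 12136.5 at its brightest probe set. Of the rest, the cyclin gene Ccnd1, the ferritin gene Fth1, the metallothionein gene Mt2 and the protease inhibitor gene Timp1 were above threshold on all arrays. The matrix metalloproteinase genes Mmp3, Mmp9 and Mmp13, the adhesion receptor gene Cd44 and the urokinase pathway genes Plau and Plaur were under it on every array. In this list 0 genes passed the variance test in limma, 0 had an unadjusted p under 0.05, and the median log2 SD was 0.17.

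**Figure D4:**
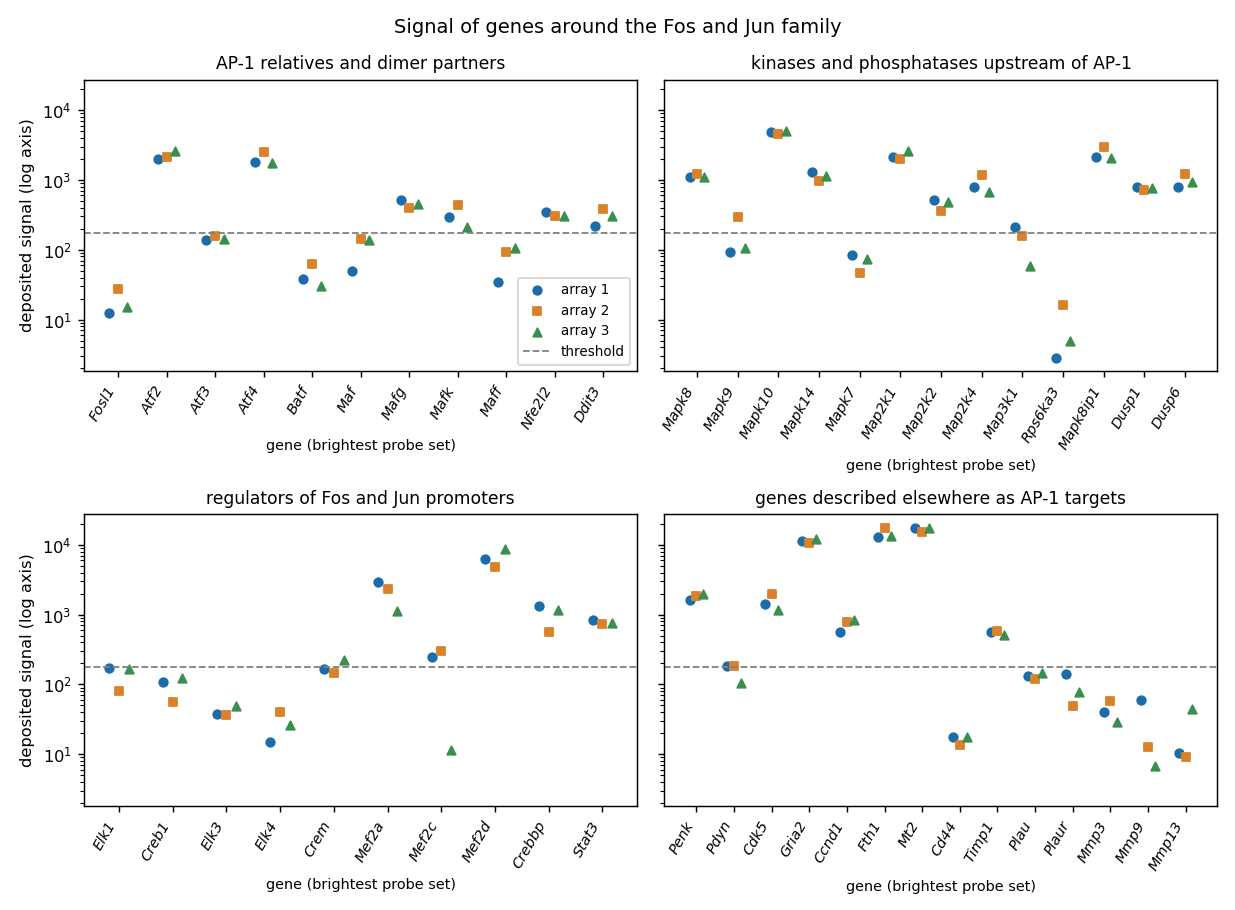
Deposited signal on a log axis of the genes in the 4 lists around AP-1, each at its brightest probe set, with 1 point per array and a dashed line at the threshold of 174.8. Most kinases lie above the line with the 3 arrays close together, while Mef2c falls to 11.5 on array 3.

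The genes whose pattern was most like that of Jund, the member with the lowest variance-test p, were Ctrb1, Chgb and Fyn. Likeness was the Euclidean distance between log2 deviations from each gene's own mean over 3 arrays, among 4875 genes. The distance was 0.025 for Ctrb1, the chymotrypsinogen B1 gene, 0.029 for Chgb, which encodes the vesicle protein chromogranin B, and 0.033 for Fyn, a Src-family kinase gene. Their signals were 502, 404 and 735.5 for Ctrb1, 12113, 9286 and 17389 for Chgb and 2109, 1671 and 3183 for Fyn. With 3 arrays such matches are common, and 23 genes lay within a distance of 0.1.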

How the data were processed

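The deposited values are linear signal intensities, 1 for each probe set on each of 3 arrays, and 0 columns belonged to other samples. No source used here names the program or background correction behind them. Mean signal after trimming 2% at each end was 500.3 on each array, so the deposited intensities share a common scale. Of 12488 probe sets, 66 were controls, 10833 carried 1 gene symbol in the platform annotation, 396 carried several and stayed unassigned, and 1193 carried none. Current symbols were taken by Entrez identifier from RefSeq annotation of GRCm38.p6. A gene was represented by its brightest probe set.

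Arrays were rescaled by 0.991, 0.987 and 1.02, floored at 47.5 and log2-transformed. The variance of each of 6218 probe sets above 174.8 was tested in R 4.3.3 with limma, version 3.58.1 (fitFDistRobustly, tails winsorised at 0.05 and 0.1, upper-tail F, Benjamini-Hochberg over all of them). The test was tried on simulated data with single arrays shifted by known amounts. Precision is limited by the number of arrays, and p-values measure only the spread between these arrays. Pairs of arrays shared identical values in 6 to 18 probe sets, so no array repeated another.

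The members and gene lists were chosen with earlier results of these data known. Named are every member, the first 4 genes with a probe set in each list, any past the variance test, and the 3 genes nearest in pattern to the member with the lowest variance-test p. Outside this rule, Mef2a, Mef2c and Crebbp were named for their unadjusted p, and the remaining target genes by their side of the threshold, after their values were seen. Python 3.11.15 drew the figures and searched the promoters. Alternatives were other scalings, floors and thresholds, a non-robust prior, averaged probe sets and leaving out each array.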

Additional observations from a re-analysis of the deposited data

How the results depend on the processing

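The count of 5 member genes above threshold became 6 at the 25th percentile, 1 at the 75th, where Jund alone remained, and 4 with all probe sets of a gene averaged, and lay between 5 and 6 when 1 array was left out. The gene lost on averaging was Fos, and the added gene without array 2 was Fosl2. The count of members past the limma variance test was 0 under all 13 alternatives. Over all probe sets that test called 1 in the main setting, 0 after quantile normalization, cyclic loess, at the 75th percentile or with a non-robust prior, 6 at the 25th percentile and 1375 with no threshold. In the last, 161716_at of Fos had a limma adjusted p of 0.0057, although 2 of its 3 values were at the floor. With no threshold but without probe sets at the floor on any array, an alternative chosen after seeing the data, 1 probe set was called. Leaving out 1 array gave between 0 and 50 calls, the most without array 3. The unadjusted p of Jund was under 0.05 in 9 of 13 alternatives and 0.28 without array 3. Fosl2, tested only where it passed the threshold or none was set, had an unadjusted limma p of 0.041 at the 25th percentile. It was 0.10 without array 2 and 0.48 with no threshold. The low signal of the dim probe sets limits Fosl2 and 161716_at of Fos most. No paired analysis was possible because there is 1 group.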
